A study of Equus caballus with 2 samples.

Results

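Notch signalling was examined in cultured equine endometrial fibroblasts through 10 genes that were chosen by symbol, out of the 21426 genes counted in single cell sequencing. They are the receptors *NOTCH1*, *NOTCH2* and *NOTCH3*, the ligands *JAG1*, *JAG2* and *DLK1*, and the targets *HES1*, *HEY1*, *HEY2* and *HEYL*, and each matched 1 row of both count matrices. Cells of 4 mares, grown on collagen-coated hydrogels, were pooled for each treatment group and made into 1 droplet library. The control library received medium with BSA in place of serum and nothing else. The other library, called treated here, received TGF-β1 of human sequence in that medium, at 10 ng/ml for 24 h. The cells were primary fibroblasts of the endometrium of female horses in culture, away from the glands and vessels of the tissue.

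Notch receptors sit in the cell membrane and are activated when a ligand on a neighbouring cell binds them. Activation releases the intracellular part of the receptor, which enters the nucleus, joins the DNA-binding protein RBPJ and a Mastermind-like co-activator, and switches on genes of the HES and HEY families. These targets encode basic helix-loop-helix repressors of transcription. Notch and TGF-β signalling are both known from work on fibroblast activation and fibrosis.

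In the control library 3865 of 4384 barcodes, and in the treated library 4513 of 5124, passed the filters, which asked for 20000 transcripts counted by unique molecular identifier (UMI), 3500 genes and a mitochondrial share of UMIs below 4%. They summed to 210497250 and 219731144 UMIs, the median cell held 50313 and 43142 UMIs, and 2 of their cell barcodes occurred in both libraries. With 1 library per condition there was no replicate and no test, so library and treatment cannot be told apart, and every interval below is an exact 95% binomial interval that covers counting error only. Levels are UMIs per 1000000 (CPM), summed over the kept cells, and each log2 ratio divides the treated by the control level. Of the fibroblast markers, *VIM*, *COL1A1* and *COL1A2* had a UMI in 100% of cells of both libraries, each cell thinned at random to 20000 UMIs so that all have equal depth. The other members of that list ranged more widely. *PDGFRA* was found in 53.9% of control and 25.5% of treated cells (log2 ratio -1.60) and *THY1* in 93.2% and 72.1% (-1.30), and the level of *VIM* itself was lower, at -0.97. Of the 8 genes of the list, 4 had a higher and 4 a lower level after treatment. Among markers of other cells, *EPCAM*, *CDH1*, *PECAM1*, *CDH5* and *TIE1* were found in at most 0.0886% of cells, *PTPRC* had 1 UMI in the control and 0 in the treated library, and *KCNJ8* of mural cells had 0 in both. The summed endothelial list moved from 13.3 to 23.2 CPM, nearly all of it *ERG*, and the summed epithelial list from 134 to 12.3 CPM, nearly all of it *KRT8* and *KRT7*. The summed mural list was 748 and 659 CPM, mostly *DES*, and the immune list 56.7 and 52.9 CPM, mostly *CD68* and *CD14*. The part of these cells in the results below was not tested.

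Between the libraries, the largest differences among the 10 genes were lower values after TGF-β1 for the ligand *JAG1* and the target *HEY1*, at 1.96-fold and 2.12-fold. *DLK1* was also lower, and *HEYL* at very low counts. The receptor *NOTCH2* and the target *HES1* were lower by smaller amounts, and the counting interval of *HEY2* held 0. A mean of at least 1 CPM was reached by 6 of the 10, of which 1 (*HEY1*) was lower by more than 2-fold and 0 were higher. Over all 12116 genes at that level, 6.91% differed by more than 2-fold, 3.46% lower and 3.45% higher. At 1.5-fold 3 of the 6 were lower (*JAG1*, *DLK1* and *HEY1*) and 0 higher, where 17.0% of all genes differed, 9.36% lower and 7.64% higher. A mean of at least 10 CPM was reached by 3 of the 10 (*NOTCH2*, *JAG1* and *HES1*), of which 0 differed by more than 2-fold, against 4.43% of 7658 genes, 2.13% lower and 2.30% higher. Of these 3, *JAG1* alone was lower by more than 1.5-fold and 0 were higher, against 12.7% of the 7658, 6.48% lower and 6.19% higher. *JAG1* reached that minimum only through its control level, and counts over so few genes support nothing about the 10 as a group. The median log2 ratio was 0.01 over the 7658 genes and -0.01 over the 12116.

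**Figure D1:**
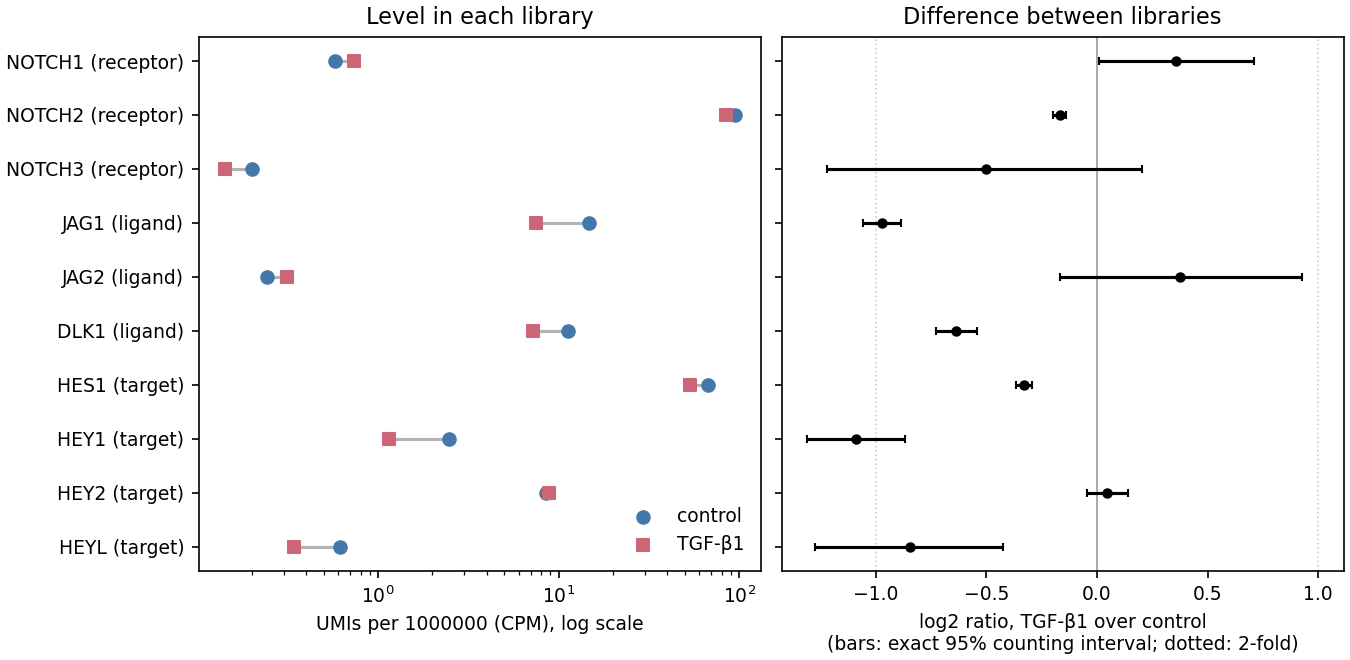
The left panel gives the level of each gene in the control library (circles) and the treated library (squares) in CPM on a log scale, and the right panel gives the log2 ratio, treated over control, with its exact 95% counting interval. *JAG1* at -0.97 and *HEY1* at -1.09 lie near the dotted line of a 2-fold lower level, while the interval of *HEY2* spans 0.

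Among the receptors, *NOTCH2* had 20053 UMIs in the control library, or 95.3 CPM, and 18615 in the treated library, or 84.7 CPM. The log2 ratio was -0.17, with an interval of -0.20 to -0.14. This placed *NOTCH2* 2040th from the lowest of 7658 ratios. *NOTCH1*, the receptor best known from blood and vessel development, had 121 UMIs (0.575 CPM) in the control and 162 (0.737 CPM) in the treated library. Its log2 ratio of 0.36 had an interval of 0.01 to 0.71, which only just left out 0. *NOTCH3*, known from vascular smooth muscle and pericytes, had 42 UMIs (0.200 CPM) and 31 (0.141 CPM). Its interval of -1.22 to 0.20 held 0. *NOTCH2* was thus the one receptor here with enough UMIs for a narrow interval.

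In the cells thinned to 20000 UMIs, *NOTCH2* had a UMI in 71.9% of control cells (70.4% to 73.3%) and in 71.5% of treated cells (70.1% to 72.8%), and in 89.9% and 87.4% without thinning. The thinned shares differed by less than their intervals. Without thinning the intervals, 88.9% to 90.8% and 86.4% to 88.3%, did not overlap. In thinned cells the lower CPM was seen in the UMIs per cell with a UMI, which were 2.52 in the control and 2.31 in the treated library. Cells with at least 3 *NOTCH2* UMIs made up 27.3% of the control and 23.8% of the treated library. *NOTCH1* was found in 1.14% and 1.22% of thinned cells and *NOTCH3* in 0.543% and 0.332%. Of the 8 endothelial markers, *VWF*, *KDR* and *TEK* had shares of 0.336% to 0.880% in the control and 0.155% to 0.532% in the treated library. *EMCN* was at 0.569% and 0.0665%, *PECAM1*, *CDH5* and *TIE1* lay lower, at up to 0.0886%, and *ERG* far higher, at 13.9% and 26.5%. The epithelial marker *MUC1* was at 1.27% and 0.975%. Markers of other cells lay both below and above them, as they do for every gene studied here, so the markers set no background. With so few cells, the *NOTCH1* and *NOTCH3* shares were not read as expression or as a difference.

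**Figure D2:**
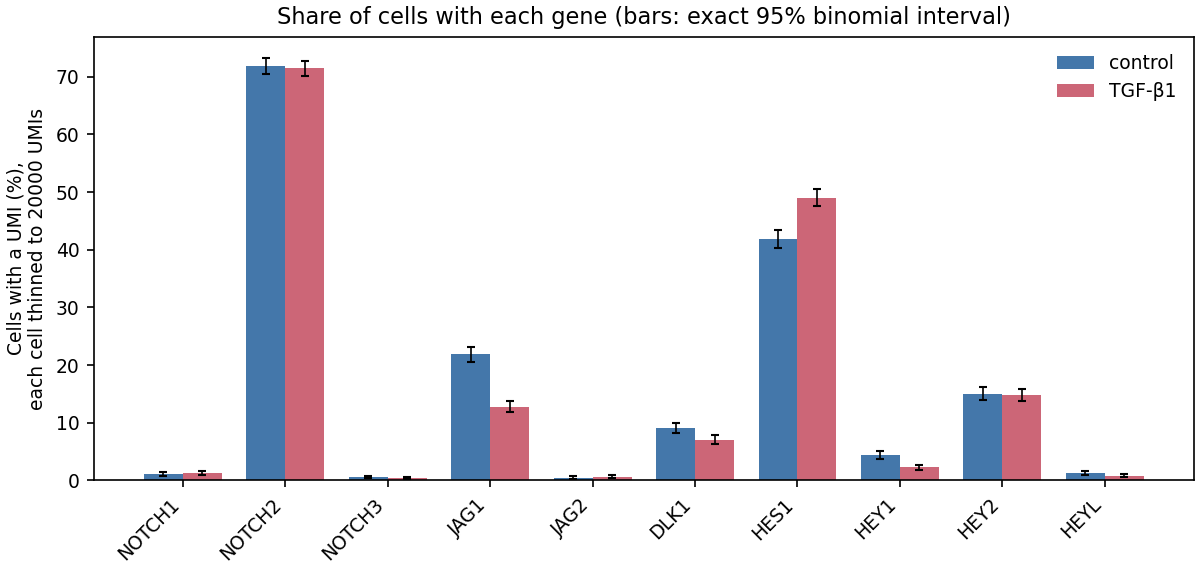
Bars give the share of cells with at least 1 UMI of each gene after thinning every cell to 20000 UMIs, for control and treated cells, with exact 95% binomial intervals. The shares of cells with a UMI of *JAG1* and *HEY1* were lower and that of *HES1*, against its CPM, higher in the treated library, while *NOTCH2* and *HEY2* had overlapping intervals.

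Among the ligands, *JAG1* encodes Jagged 1, a membrane protein that activates Notch receptors on adjacent cells. It had 3099 UMIs (14.7 CPM) without and 1648 (7.50 CPM) with TGF-β1. The log2 ratio was -0.97, with an interval of -1.06 to -0.89, and was 175th from the lowest of 7658. Thinned, *JAG1* was found in 21.9% of control cells (20.6% to 23.2%) and in 12.8% of treated cells (11.8% to 13.8%), and without thinning in 44.7% and 27.0%. Cells with *JAG1* held 1.24 UMIs in the control and 1.12 in the treated library, and at levels this low a lower level shows mainly as fewer cells with a UMI. Cells with 3 or more thinned *JAG1* UMIs numbered 33 in the control and 7 in the treated library.

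*JAG2*, the second Jagged ligand, had 51 UMIs (0.242 CPM) and 69 (0.314 CPM), and its interval of -0.17 to 0.93 held 0. It was found in 0.466% and 0.665% of thinned cells. The first share lay within and the second above the range of *VWF*, *KDR* and *TEK* in the same library. Other endothelial markers lay below and above both shares, so the markers set no background. With so few UMIs and an interval that held 0, *JAG2* was not read as a difference. *DLK1* encodes a ligand without the domain by which other ligands activate the receptor, and is known as an inhibitor of fat cell differentiation and, in several settings, of Notch. It had 2359 UMIs (11.2 CPM) in the control and 1585 (7.21 CPM) in the treated library, a log2 ratio of -0.64 with an interval of -0.73 to -0.54. *DLK1* was found in 9.06% of thinned control cells (8.17% to 10.0%) and 7.02% of treated cells (6.30% to 7.81%), in 14.2% and 11.2% without thinning, with 2.62 and 2.28 UMIs in each cell that had it. Its counts were uneven among cells, with a Fano factor (variance over mean, near 1 for random counts) of 5.27 and 4.44. Cells with 3 or more *DLK1* UMIs were 107 of 3865 in the control and 88 of 4513 in the treated library, and they held 66.6% and 61.0% of its UMIs.

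Among the targets, *HES1*, which also responds to signals other than Notch, had 14098 UMIs (67.0 CPM) in the control and 11715 (53.3 CPM) in the treated library. The log2 ratio was -0.33 with an interval of -0.36 to -0.29, and it was 1131st from the lowest of 7658. The share of cells moved the other way, from 41.8% of thinned control cells (40.3% to 43.4%) to 49.0% of treated cells (47.6% to 50.5%), and without thinning from 56.6% to 66.5%. Thinned to 10000 UMIs, it was 31.5% and 32.8%, so the gap depended on the depth. Because this share goes against the CPM, no order of expression was read from it, and the counts per cell are given instead. 

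The counts of *HES1* were unevenly spread among cells. In the control library it had 0 UMIs in 58.2% of thinned cells, 1 to 2 in 23.9%, 3 to 9 in 15.5% and 10 or more in 2.43%. In the treated library the same classes held 51.0%, 34.3%, 14.1% and 0.598% of cells. At this depth cells with 10 or more UMIs were less frequent in the treated library. The share of cells with 0 UMIs is the share set aside above, and it is not a share of cells that lack *HES1*. The 94 control cells with 10 or more UMIs held 23.3% of the *HES1* UMIs of that library, and the 27 treated cells held 6.51%. Cells with *HES1* had 3.33 UMIs on average in the control and 2.27 in the treated library, the highest cell had 27 and 20, and the Fano factor was 5.28 and 2.81. The squared coefficient of variation beyond that of random counts was 3.08 in the control and 1.62 in the treated library, against medians of 0.132 and 0.114 over 4671 genes with a thinned mean of at least 0.5 UMIs. *HES1* ranked 28th and 45th from the highest among them, and *NOTCH2* 494th and 427th. These classes and this measure of spread were chosen after the values had been seen.

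**Figure D3:**
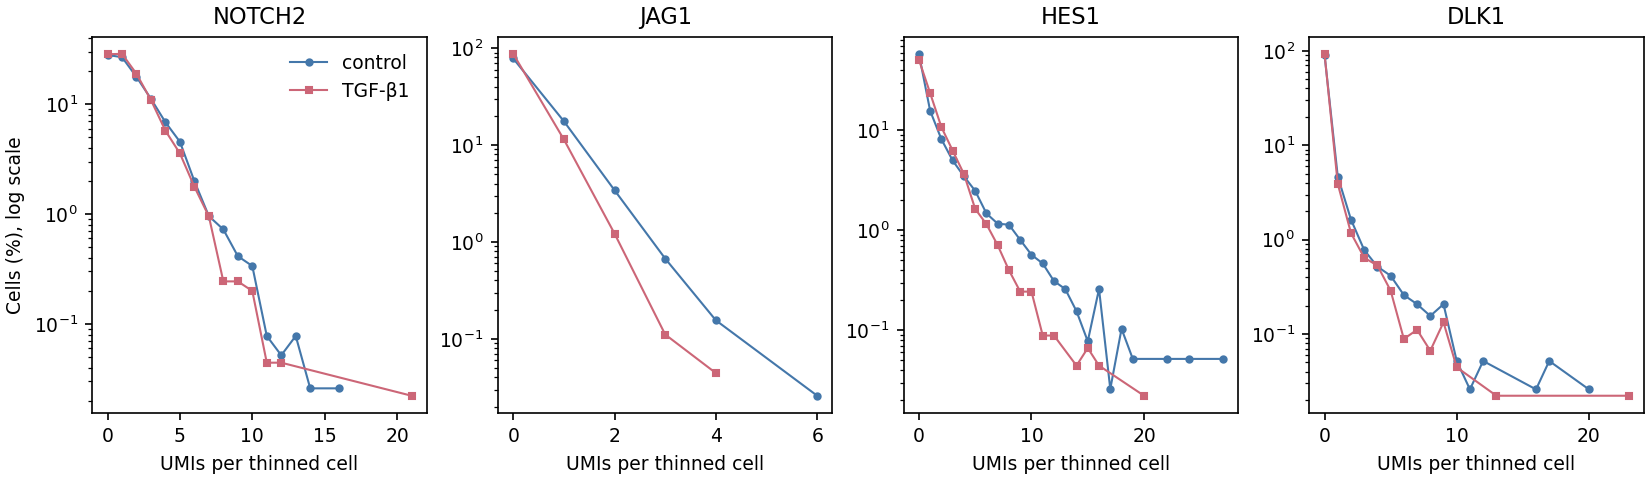
Each panel gives the percentage of cells, on a log scale, with each number of UMIs of *NOTCH2*, *JAG1*, *HES1* or *DLK1* after thinning to 20000 UMIs, in the control library (circles) and the treated library (squares). The *HES1* curve of the treated library falls faster at high counts, with 0.598% of cells at 10 or more UMIs against 2.43% in the control.

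*HEY1* encodes a repressor related to *HES1* that is a direct Notch target in many cell types and can also respond to BMP signals. It had 517 UMIs (2.46 CPM) in the control and 254 (1.16 CPM) in the treated library, a log2 ratio of -1.09 with an interval of -1.31 to -0.87. It was found in 4.35% of thinned control cells (3.73% to 5.04%) and 2.24% of treated cells (1.83% to 2.71%), and in 10.0% and 4.94% without thinning. Most cells with *HEY1* held 1 UMI, 147 of 168 in the control and 96 of 101 in the treated library, so fewer cells with it and fewer UMIs per cell could not be told apart. Of the 7 mural markers, *CSPG4* lay below these thinned shares, at 2.04% and 2.06%, and *MCAM* above them, at 8.72% and 3.30%. *RGS5* (61.8% and 68.2%), *MYH11* (37.9% and 27.5%) and *DES* lay far higher, and *ABCC9* and *KCNJ8* at up to 0.0222%. Mural markers thus lay both below and above them and set no background. Because most cells with *HEY1* held 1 UMI, its shares are given as counts of UMIs. They were not read as shares of expressing cells. *HEYL* had 129 UMIs (0.613 CPM) and 75 (0.341 CPM), a log2 ratio of -0.84 with an interval of -1.27 to -0.42, and was found in 1.22% and 0.753% of thinned cells. Markers of other cells had shares from below to above these, differed in direction and set no background. They included *MUC1* at 1.27% and 0.975%, *VWF* at 0.880% and 0.532%, *CLDN4* at 0.207% and 0.421% and *CSPG4* at 2.04% and 2.06%. With so few UMIs, the shares of *HEYL* were not read as expression or as a difference, and its ratio stands as counts only. *HEY2*, known from heart and vessel development, had 1792 UMIs (8.51 CPM) and 1932 (8.79 CPM). Its log2 ratio was 0.05, with an interval of -0.05 to 0.14, and it was found in 15.1% and 14.8% of thinned cells. The intervals of *HEY1* and *HEY2* did not overlap.

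Combined, at least 1 receptor was found in 72.4% of thinned control cells and 71.9% of treated cells, nearly all through *NOTCH2*. *JAG1* or *JAG2* was found in 22.2% (20.9% to 23.5%) and 13.4% (12.4% to 14.4%). Cells with both a receptor and a Jagged ligand made up 16.5% of the control and 10.1% of the treated library, and cells with a receptor and no Jagged ligand 55.9% and 61.8%. Cells with a Jagged ligand and no receptor made up 5.74% and 3.32%. Any of the HES and HEY targets was found in 51.3% of control and 57.1% of treated cells, mostly through *HES1*, whose share was set aside above, so no order was read from it, and any HEY gene in 19.6% and 17.1%, and none of the 10 genes in 9.31% and 9.68%. The median cell had 2 of the 10 genes, and the highest had 6, in both libraries.

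Clusters were rebuilt from the kept cells of both libraries without the Notch genes, which gave 8 clusters with 57 to 1180 cells per library. They are numbered here, were not matched to the numbers of the study, and are not replicates. Cluster 6 was cycling-like, with 9 of 9 cycling markers found more than 2-fold above the other cells, a rule set after earlier results were known. *JAG1* was lower after TGF-β1 in 8 of 8 clusters, with log2 ratios of -1.45 to -0.79, intervals below 0 in all 8 and more than 2-fold in 4. Its control level ranged from 11.1 CPM in cluster 5 to 18.6 in cluster 1, and its treated level from 4.06 in cluster 5 to 8.59 in cluster 3, so the ranges of the clusters did not overlap between the libraries. *HEY1* was lower in 8 of 8 clusters as well, at -1.64 to -0.26, with intervals below 0 in 5. *HEY1* was highest in cluster 3 of the control library, at 4.04 CPM, where the treated level was 1.29 CPM. *HEYL* could be compared in 4 clusters, those with over 3 UMIs in each library, and was lower in all 4, with 2 intervals below 0. At resolution 0.8 it was lower in 5 of 6 such clusters and higher in 1, at 0.33 with an interval of -0.81 to 1.42.

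*NOTCH2* varied more among clusters than between libraries. It ranged from 22.0 CPM in cluster 5 to 133 in cluster 3 of the control library and from 12.8 to 119 CPM in the same clusters of the treated library. The log2 ratio was below 0 in 6 clusters, in 5 of them with its interval, and was lowest in cluster 5 at -0.78. In the cycling-like cluster 6 it was 0.11, with an interval of -0.03 to 0.24. Clusters of like size at other resolutions had intervals that left out 0, though their match to cluster 6 was not tested. At resolution 0.3 the cluster of 132 control and 156 treated cells was at 0.140 (0.00345 to 0.276). At resolution 0.8 that of 133 and 158 cells was at 0.140 (0.00483 to 0.276). *DLK1* ranged even more widely among clusters, from 1.13 CPM in cluster 2, led by *KRT7* and *KRT8*, to 26.0 in cluster 5, led by *CFD*, *CRABP2* and *SOD3*, in the control library. In the treated library cluster 5 was at 8.89 CPM, and cluster 3 was highest at 14.6. It was lower after TGF-β1 in 7 of 8 clusters, 5 of them with intervals below 0, and cluster 1 had a ratio of 0.28 whose interval held 0. At resolution 0.3 the highest cluster was at 0.36, with an interval of 0.01 to 0.72 that left out 0. Of the cells with 3 or more *DLK1* UMIs, clusters 0 and 3 held 33.6% and 36.4% in the control and 36.4% and 37.5% in the treated library.

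*HES1* was lower after TGF-β1 in 7 of 8 clusters, at -0.79 to -0.16 with intervals below 0, and highest in cluster 4 of both libraries, at 97.2 and 74.2 CPM. The share of thinned cells with *HES1* was higher after treatment in 8 of 8 clusters, against the CPM in 7 of them, and no order was read from it. Cluster 7 went the other way, from 30.8 CPM in 116 control cells to 50.7 CPM in 57 treated cells, a log2 ratio of 0.72 with an interval of 0.40 to 1.03. Cells with 10 or more *HES1* UMIs were found in 8 of 8 control clusters, with 28.7% of them in cluster 4. In the treated library 0 such cells were in clusters 5, 6 and 7, and clusters 0 and 4 held 37.0% of them each. *HEY2* was higher in 4 clusters and lower in 4, at -0.61 to 0.24. It was highest in cluster 3, at 15.2 and 13.4 CPM, and lowest in cluster 2, at 3.70 and 3.75 CPM. *NOTCH1* could be compared in 6 clusters and was higher in 5 of them, with 1 interval above 0, that of cluster 2 at 1.06.

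**Figure D4:**
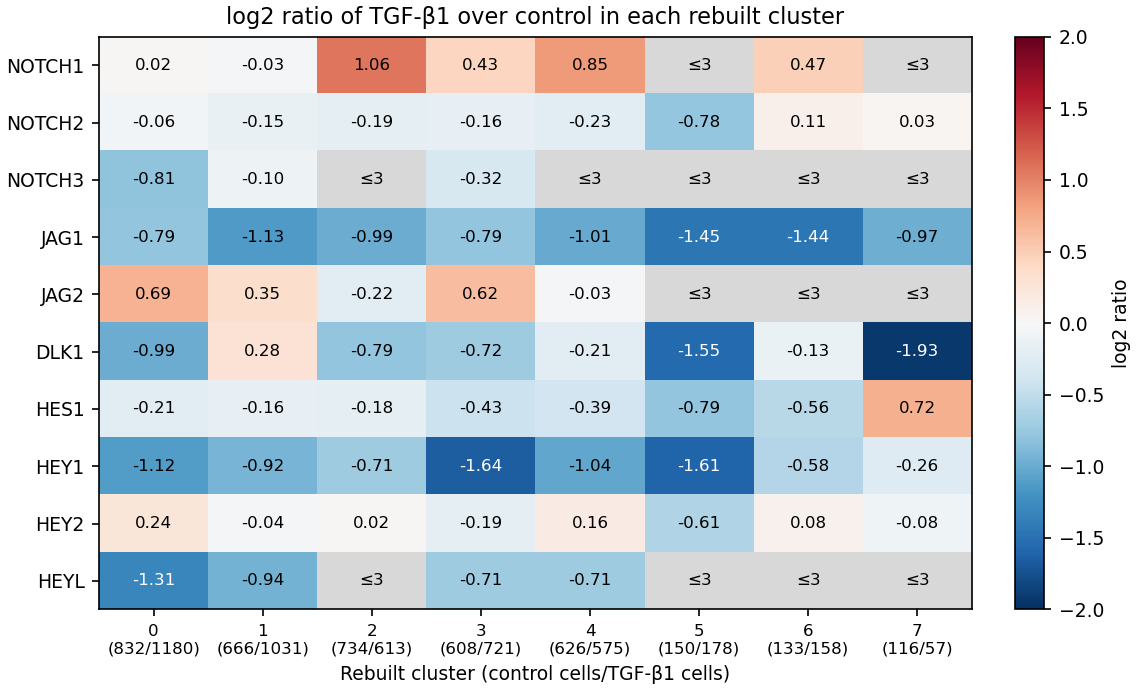
The colour and number of each field give the log2 ratio, treated over control, for 1 gene in 1 rebuilt cluster, with the control and TGF-β1 cells under each cluster number, and grey fields had 3 or fewer UMIs in either library. *JAG1* and *HEY1* were below 0 in 8 of 8 clusters, *HES1* in 7, and *HEY2* in 4.

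Co-detection was counted as the cells with a UMI of both genes, over the number that the shares of the 2 genes within each cluster would give. A ratio of 1 means that the genes were found together as often as their shares give. The interval covers the count of cells with both and takes that count as free of the shares of the 2 genes. For genes found in many cells it is therefore too wide, and an interval that holds 1 does not show independence. Of the 10 genes, 5 (*NOTCH2*, *JAG1*, *DLK1*, *HES1* and *HEY2*) were found in at least 5% of thinned cells, which gave 10 pairs. The ratios were 0.930 to 1.24 in the control and 0.983 to 1.10 in the treated library, and the intervals of 9 and 10 pairs held 1. Only that of *HES1* with *HEY2* in the control library left out 1. The pair was found together in 295 cells (7.63%), a ratio of 1.24 with an interval of 1.10 to 1.38. Thinned to 10000 UMIs it was 1.20, with an interval of 0.991 to 1.44 that held 1, and without thinning 1.14, with an interval of 1.07 to 1.21. In the treated library the pair was found in 360 cells (7.98%), a ratio of 1.10 with an interval of 0.996 to 1.22, and without thinning 1.07, with an interval of 1.01 to 1.13 that left out 1. Without thinning, other intervals of the treated library also left out 1. They were those of *JAG1* with *DLK1* (1.20, interval 1.02 to 1.40) and *DLK1* with *HEY2* (1.21, interval 1.05 to 1.38). Cells that are not thinned differ in depth, which can raise such ratios, so the unthinned values were not read as co-expression. The count of 1 interval that left out 1 holds only for cells thinned to 20000 UMIs. The difference between the libraries was not tested, and the 2 intervals overlap.

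The other high ratios of the control library were those of *DLK1* with *HEY2*, at 1.09, and *NOTCH2* with *DLK1*, at 1.02. Its lowest were *JAG1* with *DLK1* at 0.930 and *JAG1* with *HES1* and *NOTCH2* with *HES1*, both at 0.968. In the treated library *JAG1* with *DLK1* had 1.10 and *DLK1* with *HES1* 1.09. The lowest there were *NOTCH2* with *HES1* at 0.983, *NOTCH2* with *HEY2* at 0.987 and *JAG1* with *HES1* at 1.01. The order of the pairs with *DLK1* depended on the depth, since thinned to 10000 UMIs the control ratio of *DLK1* with *HEY2* was 0.539 in 12 cells and that of *JAG1* with *DLK1* 1.31 in 42 cells. Receptor and ligand were thus found together about as often as their shares give. *NOTCH2* and *JAG1* shared 16.1% of control cells, where the shares give 15.9% (a ratio of 1.01), and 9.57% of treated cells, where they give 9.29% (1.03). Pearson's r of the log counts over single cells was -0.05 to 0.09 over 3865 control cells and -0.05 to 0.04 over 4513 treated cells for the 10 pairs, which share library and depth, and correlations this weak in sparse counts are no finding.

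**Figure D5:**
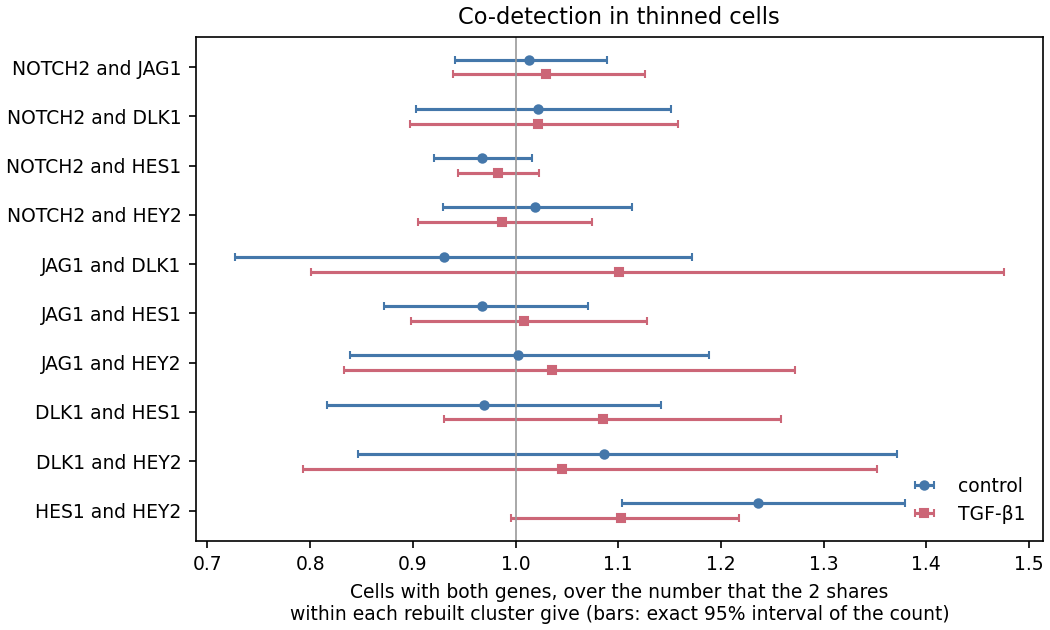
Points give, for each of the 10 pairs, the number of thinned cells with both genes over the number that the shares within each cluster give, in the control library (circles) and the treated library (squares), with the exact 95% interval of the count. *HES1* and *HEY2* in the control library, at 1.24, is the only one of the 20 values whose interval leaves out 1. For genes found in many cells these intervals are too wide, and one that holds 1 does not show independence.

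The HEY genes were followed across cells with more *HES1*, a comparison chosen after the ratios above had been seen. In the control library, *HEY2* was found in 12.8% of the 2249 cells with 0 *HES1* UMIs, 17.1% of those with 1 to 2, 19.0% of those with 3 to 9 and 24.5% of the 94 with 10 or more. *HEY1* was found in 3.16%, 4.45%, 7.50% and 11.7% of the same cells. Both shares were higher in each class with more *HES1*, and the intervals of the first and last class were 11.4% to 14.2% and 16.2% to 34.4% for *HEY2*, and 2.47% to 3.97% and 5.99% to 20.0% for *HEY1*. In the treated library *HEY2* was found in 13.5%, 15.8%, 16.9% and 29.6% of cells, the last of only 27 cells with an interval of 13.8% to 50.2%, and *HEY1* in 2.35%, 1.87%, 2.52% and 7.41%. *HES1* and *HEY1* together were found in 97 control cells, a ratio of 1.42 with an interval of 1.15 to 1.73, and in 47 treated cells, a ratio of 0.948 with an interval of 0.698 to 1.26. *HEY1* was below the 5% minimum for pairs in both libraries, and without thinning the ratios were 1.16, with an interval of 1.02 to 1.30, and 1.04, with an interval of 0.889 to 1.22. Of the other pairs below that minimum, *JAG2* with *DLK1* in 7 treated cells, at 2.98 with an interval of 1.20 to 6.13, also left out 1, and without thinning it was 1.53 with an interval of 0.789 to 2.66. Without thinning, *HEY1* with *HEY2* was at 1.38 (1.19 to 1.59) in the control and 1.28 (1.03 to 1.57) in the treated library. *DLK1* with *HEY1* was at 1.33 (1.07 to 1.64) in the control, and *NOTCH1* with *HEYL* at 3.21 (1.29 to 6.61) in 7 treated cells. These unthinned values rest on cells of unequal depth, which can raise such ratios, and were not read as co-expression. Across the thinned *HES1* classes of the control library, *JAG1* had no order like that of the HEY genes, with 22.4%, 19.8%, 23.8% and 17.0%.

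Across thinned cells with more *NOTCH2*, the share with *HES1* was not higher. In the control library it was 44.9% of cells with 0 *NOTCH2* UMIs, 41.8% of those with 1 to 2 and 38.6% of those with 3 or more, and the intervals of the first (41.9% to 47.9%) and last (35.6% to 41.6%) did not overlap. In the treated library it was 50.7%, 48.6% and 47.8%, with overlapping intervals. Without thinning the direction was the other way. There *HES1* was found in 56.9% of control cells with *NOTCH2* and 53.5% of those without it, and in 67.2% and 61.5% of treated cells. Cells that are not thinned differ in depth, and a deeper cell more often has a UMI of each gene, which can raise their co-detection. Only the thinned shares compare cells at equal depth. There the control share was lower with more *NOTCH2*, an order that was not tested. *HEY2* was found in 13.9%, 15.6% and 15.4% of the thinned control cells of these classes and 14.8%, 13.8% and 17.0% of the thinned treated cells. Since all transcripts of a thinned cell share its 20000 UMIs, and cells of different clusters are mixed in these classes, these shares are descriptions.

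Of the other genes of the pathway, 80 symbols were listed and 74 were found, and 57 had a mean of at least 1 CPM. The treated level was higher for 29 and lower for 28, with a median log2 ratio of 0.01, and 2 of the 57 (3.51%) differed by more than 2-fold, both higher, against 6.91% of all genes in either direction. The first was *CCN3*, a matricellular protein that can bind Notch, at 5.04 CPM in the control and 11.5 in the treated library (log2 ratio 1.19). The second was *CCND1*, the cell cycle regulator cyclin D1 and a target of several pathways, at 78.9 and 176.5 CPM (1.16). The cycling markers beside it were lower in 9 of 9, from 55.6 to 31.9 CPM summed. Other ligands and binding proteins included *MFAP2*, a microfibril protein, at 490 and 589 CPM (0.26). Below the 10 CPM minimum of the naming rule, and named here after their values were seen, the ligand *DNER* was at 7.08 and 12.2 CPM (0.78), the Delta ligand *DLL1* at 8.56 and 10.7 CPM (0.32) and the ubiquitin ligase *DTX3L* at 8.10 and 4.30 CPM (-0.91).

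The genes of signal transfer differed in both directions. In the nuclear complex, *RBPJ* was at 92.7 CPM in the control and 126 in the treated library, the highest ratio of its group at 0.45. The co-activator *MAML3* had the lowest, at 19.1 and 9.83 CPM (-0.96, interval -1.03 to -0.88). Among the cleavage genes, the protease *FURIN*, which processes the receptor precursor, had 0.45 and the γ-secretase subunit *PSEN2* -0.27. The Notch inhibitor *NUMB* had 0.34 and the ubiquitin ligase *DTX2* -0.17, while *POGLUT1*, which adds glucose to the receptor, had -0.05. Among the repressors *SPEN* had 0.20 and *TLE1* -0.27, and among the other targets *MYC* was lowest, at 30.4 and 17.0 CPM (-0.83).

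Genes with a pattern like a member were ranked by Pearson's r of log2(CPM + 1) over the 16 combinations of cluster and library among 7213 candidate genes. The points share libraries and are not independent, so r is a description. *NOTCH2* was followed most closely by *RAP1GDS1*, *BICC1* and *KLF12*, each at 0.99 and at 0.98 or more within either library. *JAG1* was followed by *PARP14* (0.97), *SH3BP5* (0.96) and *KLHL13* (0.95), which had 0.79, 0.78 and 0.76 within the control and 0.90, 0.85 and 0.91 within the treated library. For *HES1* the first were *PRR5*, *RPL7* and *CPNE2* at 0.71, with 0.80, 0.82 and 0.70 within the control and 0.36, 0.28 and 0.56 within the treated library. Among the 10 genes themselves the highest values were *DLK1* with *HEY1* at 0.73 (0.79 within either library) and *NOTCH1* with *NOTCH2* at 0.72 (0.56 within the control and 0.84 within the treated library). *NOTCH2* with *JAG1* had 0.46 over both libraries, whose *JAG1* levels differ, but 0.76 within the control and 0.84 within the treated library.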

How the data were processed

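The deposited values are whole-number UMI counts for every gene in every called cell, before filtering. The authors obtained them by aligning reads to EquCab3.0 with Ensembl gene models in Cell Ranger (the methods give version 7.1.0, the file header 8.0.1). Whether intronic reads were counted is not given in the sources used here. Cells were kept at 20000 UMIs, 3500 genes and under 4% mitochondrial UMIs, as in the study. The study removed doublets by genotype in the reads. That step was not repeated, no doublets were removed, and mares were not assigned. MFGE8-treated cells and promoter and protein sequences were not analysed here.

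UMIs were summed and thinned without a pseudocount (Python 3.11.15, pandas 2.3.3, scipy 1.17.1, numpy 2.4.6). A ratio needed more than 3 UMIs in at least 1 library, and within a cluster in each library. Clusters were built in Seurat 5.3.0 (SeuratObject 5.2.0, R 4.3.3) with 2000 variable genes without Notch genes, 30 dimensions, canonical correlation integration and resolution 0.5. Figures were drawn in matplotlib 3.10.9. The log2 ratios and their intervals were tried on simulated counts. For co-detection the simulation held a pair of independent genes at equal depth, with neither clusters nor intervals. It therefore says nothing about the co-detection ratios within clusters or their intervals.

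The text names the 10 genes, pathway genes past 2-fold that reached 1 CPM on average, the highest and lowest of each of 7 pathway groups at 10 CPM, the 3 genes most alike to each of the 10 at 10 CPM, and the 3 highest and 3 lowest pairs per library. The 10 genes and all lists were chosen with earlier results of these data known. Alternatives were all barcodes, a 10000 UMI minimum, a 6% mitochondrial limit, removal of cells above the 98th percentile of UMIs or with 3 cycling markers, a median-of-ratios scaling, averaging CPM over single cells, a total without mitochondrial genes, standardised cluster shares, other thinning, other CPM and fold limits, and resolutions of 0.3 and 0.8.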

Additional observations from a re-analysis of the deposited data

Results flagged for a closer look

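The log2 ratio of *HES1* in rebuilt cluster 7 was 0.72, while it was below 0 in the other 7 clusters. The cluster held 116 control and 57 TGF-β1 cells with 200 and 143 *HES1* UMIs, and the share of the library in it was 3.00% and 1.26%. At resolution 0.3 the highest cluster had a ratio of 0.54, and at resolution 0.8 the highest ratio was 0.01. The log2 ratio of *HEY2* in rebuilt cluster 0 was 0.24, with an interval of 0.03 to 0.44, while in cluster 3 it was -0.19, with an interval of -0.37 to -0.01. At resolution 0.3, 0 clusters had a *HEY2* interval above 0 and 0 had one below 0, and at resolution 0.8, 0 were above and 1 below. With 1 library per condition neither difference between clusters was tested.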

How the results depend on the processing

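No paired analysis was possible because cells were not assigned to mares here, which leaves 1 pooled library per condition. All 90 ratios of the 10 genes under 9 alternatives kept their sign, and 88 moved by less than their counting interval. With cluster shares standardised, *DLK1* moved to -0.75 and *HES1* to -0.29. The range was -0.99 to -0.95 for *JAG1*, -1.15 to -1.06 for *HEY1* and 0.01 to 0.07 for *HEY2*, and a size factor moved all ratios by 0.02. The 339 genes past 2-fold became 837 at 1 CPM and 970 at 1.5-fold, and the 2 pathway genes became 1 at 10 CPM. Shares of cells rest on depth: 20 moved without thinning and 19 at 10000 UMIs, where 3 co-detection ratios also moved, *DLK1* with *HEY2* (0.539) and *JAG1* with *DLK1* (1.31) in the control and *JAG1* with *HEY2* (1.27) in the treated library. Depth limits *NOTCH1*, *NOTCH3*, *JAG2* and *HEYL*, with at most 162 UMIs in a library.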
